A study of Homo sapiens and Mus musculus with 13 samples.

Results

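MYC, MYCN and CCND1 are 3 proto-oncogenes, and the peaks of RNA:DNA hybrids within 20 kb of them were collected from 6 human peak lists. MYC lies on chromosome 8 from 128748315 to 128753680, MYCN on chromosome 2 from 16080683 to 16087129, and CCND1 on chromosome 11 from 69455873 to 69469242, on hg19 and counted from 1. The choice of the genes used no measured value, though earlier results of these data were known when it was made. In all, 48 peaks of 325035 in the 6 lists touched the 3 windows, each made of a gene and 20 kb on either side. The DRIPc list gave 8 of them, digest B 8, RNase A 10, RNase H 0, K562 8 and digest A 14.

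The lists come from a pair of established human cell lines. NT2 is a pluripotent line from a testicular embryonal carcinoma, and K562 is a leukaemia line of erythroid and myeloid character; each is 1 line standing for its tissue. In DRIP-seq, fragmented genomic DNA is incubated with an antibody against RNA:DNA hybrids and the recovered DNA is sequenced, with no strand. DRIPc-seq sequences the RNA of the recovered hybrids and so keeps a strand. The first list was from NT2 DRIPc-seq and stood for 2 samples. NT2 DRIP-seq gave a list after BamHI, NcoI, ApaL1, NheI and PvuII (digest B), another labelled RNase A and another labelled RNase H. The last 2 came from K562 DRIP-seq and from NT2 DRIP-seq with no RNase named in the labels (digest A). All but digest B were cut with HindIII, EcoRI, BsrGI, XbaI and SspI (digest A). The labels do not say at which step the RNases were used. Neither the cell line identities nor the expression of the 3 genes can be read from peak positions.

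R-loops are structures in which RNA pairs with its template DNA and leaves the other DNA strand single. They are known from gene starts rich in G on the coding strand and from gene ends. RNase H cuts RNA that is paired with DNA, and a treated library usually serves as a control for hybrids, whereas RNase A cuts mainly free RNA. MYC and MYCN encode related transcription factors that bind DNA with the partner MAX and drive growth genes. CCND1 encodes cyclin D1, the partner of CDK4 and CDK6 in passage through the first gap phase of the cell cycle. All 3 genes are transcribed from the plus strand.

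A peak list holds positions only, without height or read counts, so depth is unknown and a missing peak means that none was called there. Every group has 1 list, and no comparison below has a replicate check or a test. The lists differ in length, with 88310 peaks for DRIPc, 49331 for digest B, 59825 for RNase A, 8998 for RNase H, 51445 for K562 and 67126 for digest A. As a background for a peak at a gene start, chromosomes 1 to 22 and X were divided into windows of 4 kb, the width of the start zone. A peak was present in 14.4% of these windows in the DRIPc list, 11.1% in digest B, 10.2% in RNase A, 1.47% in RNase H, 7.93% in K562 and 9.74% in digest A. These windows are not gene starts, since no hg19 annotation was used to place other genes.

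MYC carried hybrid peaks over its start, body and end in 5 of the 6 lists, and RNase H was the list without one. The start and end zones reach 2 kb to either side of the first and last base of the gene, and the body is what lies between them. In the DRIPc list a single plus strand peak ran from 128748422 to 128754027 (5606 bp), from 107 bp after the gene start to 347 bp after the gene end. Digest B also had 1 peak, from 128747596 to 128754351 (6756 bp), which began 719 bp before the gene start. The RNase A list had 2 peaks, 1 of 6729 bp from 128745823 to 128752551 and 1 of 1408 bp from 128753038 to 128754445. K562 had 1 peak of 10297 bp, from 128745976 to 128756272. In digest A, 4 peaks lay between 128746025 and 128756194, with lengths of 1435, 1936, 2995 and 3678 bp. The 4 digest A peaks were separated by 1, 100 and 25 bp, so they formed 1 nearly continuous block of 10.2 kb, about as long as the single K562 peak. Over the whole digest A list, 5.99% of adjacent peaks had at most 10 bp between them. Of the gaps at MYC, only that of 1 bp is within this limit. The number of peaks is therefore a poor guide to the number of hybrid regions, and covered length is given below.

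**Figure D1:**
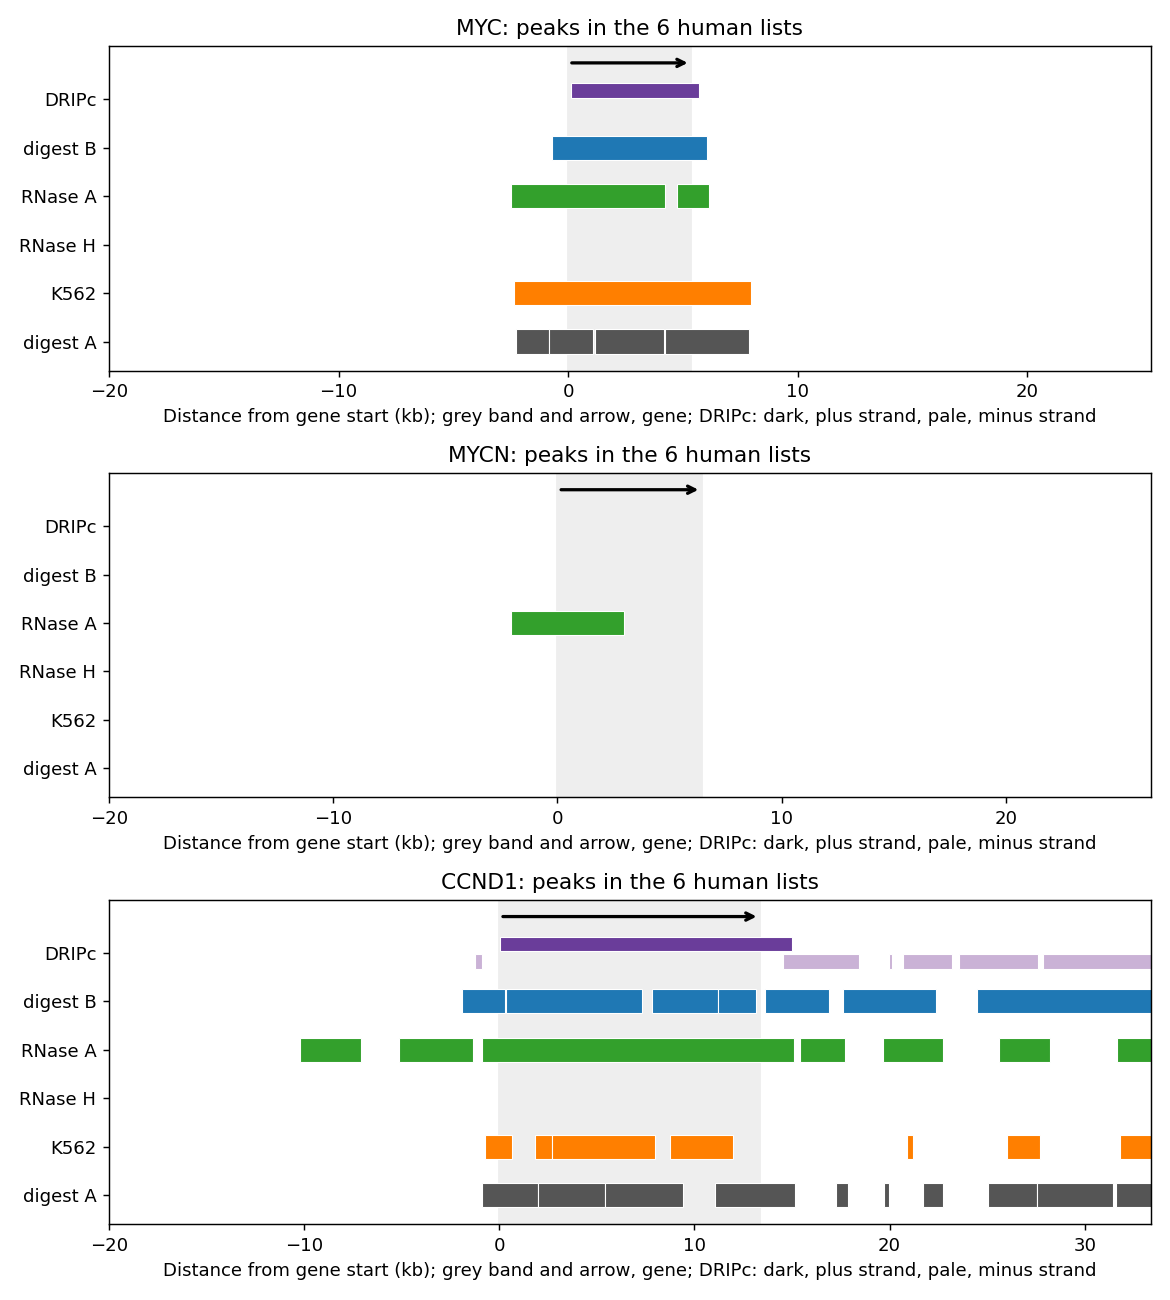
Peaks within 20 kb of MYC, MYCN and CCND1 in the 6 human lists. The horizontal axis is the distance from the gene start in kb, each bar is a peak, and the grey band with the arrow is the gene; DRIPc peaks are dark on the plus strand and pale on the minus strand, and other lists have no strand. MYC and CCND1 are covered in every list except RNase H, while MYCN has a single peak, in the RNase A list.

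The extent of the MYC peaks differed at both ends between lists. On the upstream side, RNase A began 2492 bp, K562 2339 bp and digest A 2290 bp before the gene start, all 3 cut with the same enzymes. DRIPc, also cut with these enzymes, began 107 bp after the gene start. Digest B, cut with other enzymes, began 719 bp before it, and the enzymes and the library cannot be told apart as the source. On the downstream side, K562 ended 2592 bp and digest A 2514 bp after the gene end. DRIPc, digest B and RNase A ended 347, 671 and 765 bp after it. The body was covered in full in all 5 lists. Of the end zone, 58.7% was under a peak in DRIPc, 66.8% in digest B, 57.0% in RNase A, 100% in K562 and 99.4% in digest A. Inside the end zone the RNase A list had a gap of 486 bp and digest A one of 25 bp.

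The MYC gene itself was covered to 98.0% in DRIPc, 100% in digest B, 90.9% in RNase A, 0% in RNase H, 100% in K562 and 97.7% in digest A. Over windows of the same length along the chromosomes, the mean cover in DRIPc was 7.36%, and 1.65% of windows were covered at least as much as MYC. The shares of windows covered at least as much were 1.56% for digest B, 1.35% for RNase A, 0.615% for K562 and 0.94% for digest A. Because the windows were placed without regard to genes, these shares do not compare MYC with other genes. Outside this block, no list had a peak within 20 kb of MYC. The current RefSeq annotation on GRCh38.p14 gives MYC a length of 7518 bp, against 5366 bp for the hg19 interval used here. Distances to the gene start and end, and the zones, therefore hold for that interval only.

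CCND1 was covered over most of its length in 5 lists, least in K562, and was followed by further peaks downstream. The gene was under a peak for 99.8% of its 13370 bp in DRIPc, 94.1% in digest B, 100% in RNase A, 0% in RNase H, 75.3% in K562 and 87.9% in digest A. In DRIPc, 1 plus strand peak of 14992 bp ran from 69455894 to 69470885, from 21 bp after the gene start to 1643 bp after the gene end. This peak was at least as long as 99.2% of all DRIPc peaks. RNase A likewise had 1 peak over the whole gene, from 69454962 to 69470986 (16025 bp), at least as long as 99.6% of its list. Digest B, K562 and digest A each had 4 peaks touching the gene. Those of digest B measured 2206, 6989, 3369 and 1938 bp, those of K562 1424, 879, 5286 and 3229 bp, and those of digest A 2887, 3446, 3998 and 4120 bp. Of windows of that length along the chromosomes, 0.296% were covered at least as much in DRIPc, 0.882% in digest B, 0.0811% in RNase A, 1.32% in K562 and 0.77% in digest A. As at MYC, the windows are not genes, so these shares do not compare CCND1 with other genes.

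Of the peaks touching the CCND1 gene, the first began 911 bp upstream of its start in RNase A, 752 bp in K562 and 909 bp in digest A. It began 1921 bp upstream in digest B, and the DRIPc plus strand peak began downstream of the start. The start zone also held an RNase A peak that began 5145 bp upstream and a DRIPc minus strand peak, neither of which reached the gene. The start zone was covered to 59.3% in DRIPc, 97.2% in digest B, 89.3% in RNase A, 40.5% in K562 and 72.7% in digest A. At the gene end, DRIPc covered 100% of the zone, digest B 89.5%, RNase A 93.6%, K562 14.8% and digest A 94.7%. K562 thus counted as present at the end of CCND1 through 594 bp only. With an end zone of 1 kb either side it had no peak there.

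**Figure D2:**
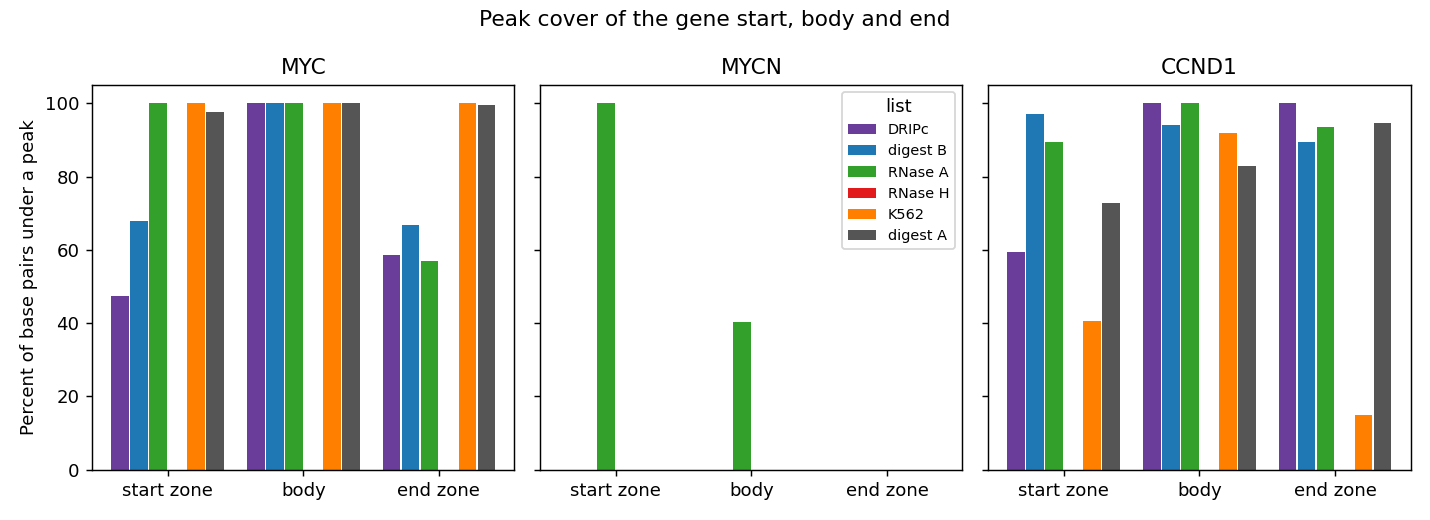
Percent of base pairs under a peak in the start zone, body and end zone of each gene, with 1 bar per list in the order DRIPc, digest B, RNase A, RNase H, K562, digest A. For MYC and CCND1 the body is covered to 82.8% or more in every list but RNase H, and the lowest bar above 0 at a gene end is that of K562 at CCND1, 14.8%.

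The DRIPc strand was plus over the genes at both MYC and CCND1. At MYC all 5606 bp of DRIPc cover in the window were on the plus strand, the direction in which the gene is read. At CCND1, 14992 bp were on the plus and 16452 bp on the minus strand, so 47.7% of the stranded cover was plus. All of the 13349 covered bp inside the CCND1 gene were plus and none minus. Whether the strand column names the RNA or its template was not checked, since no annotation of the build was used; the labels call the assay strand-specific.

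Minus strand DRIPc peaks flanked CCND1 on both sides. Upstream, a minus peak of 393 bp ended at 69455010, with 883 bp between it and the plus strand peak. It was among the shorter peaks, at least as long as 9.5% of all DRIPc peaks. Over the whole list, 1.98% of 46159 plus strand peaks had a minus peak ending in the 1 kb before them. Downstream, a minus peak from 69470420 to 69474291 (3872 bp) overlapped the last 466 bp of the plus strand peak. A minus peak starting within 1 kb of the end of a plus peak was found for 3.77% of plus strand peaks. Another 4 minus peaks of 123, 2527, 4048 and 6179 bp followed up to 69489932, the shortest at least as long as 0.473% of all DRIPc peaks. No plus strand peak lay among these 4. In RefSeq on GRCh38.p14, the next gene with an approved name downstream of CCND1 is LTO1, which is read from the minus strand and encodes a protein of ribosome biogenesis. It was picked after the strands were seen, and its position on hg19 was not used.

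The region downstream of CCND1 was also covered in the DRIP lists. Of the 20 kb after the gene end, 86.2% was under a peak in DRIPc, 84.5% in digest B, 57.2% in RNase A, 0% in RNase H, 18.0% in K562 and 59.4% in digest A. Of the 20 kb before the gene start, 1.97% was covered in DRIPc, 9.61% in digest B, 39.2% in RNase A, 3.76% in K562 and 4.54% in digest A. The longest peak in this window beyond the gene was that of digest B from 69480372 to 69490636 (10265 bp), which runs past the edge of the window. The longest there in DRIPc was 6179 bp, in K562 3629 bp and in digest A 3896 bp. In RNase A the longest beyond the gene was on the upstream side, 3806 bp from 69450728 to 69454533.

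RNase A and digest A were compared with the same enzymes. All 14 digest A peaks of the MYC and CCND1 windows touched an RNase A peak, 4 at MYC and 10 at CCND1, against 65.5% of all 67126 digest A peaks. Long peaks are found more often, and 8 of the 14 belonged to the longest quartile, above 2518 bp. Summing the shares of all digest A peaks in the length quartiles of the 14 gave 11.1 peaks. At CCND1 the RNase A list covered 61.2% of the window and digest A 46.0%. The difference lay mainly upstream, where RNase A had 7847 bp under peaks and digest A 909 bp. An RNase A peak of 3130 bp from 69445649 to 69448778 had no counterpart in any other list, and the peak of 3806 bp that followed it touched a digest B peak alone. At MYC the order was the other way, with 17.9% of the window covered in RNase A and 22.1% in digest A. The treatment and the library changed together and cannot be told apart.

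After RNase H no peak was listed within 20 kb of any of the 3 genes. None of the 14 digest A peaks was found, against 5.09% of all digest A peaks. On chromosome 11 the share found was 4.62%, and of the longest quartile of all digest A peaks 1685 of 16777 were found. The quartile shares summed to 0.998 of 14 peaks, so finding 0 is close to the rate of the whole list and does not set these loci apart. The nearest RNase H peaks lay 106 kb upstream of MYC, 47.1 kb downstream of MYCN and 366 kb upstream of CCND1.

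Between cell lines, the MYC peak was shared in full and the CCND1 peaks in part. All 4 digest A peaks at MYC were found in K562, and every base pair of the 10044 under digest A peaks there was also under the K562 peak. At CCND1, 7 of 10 digest A peaks touched a K562 peak. Together this made 11 of 14, against 54.7% of all digest A peaks, and the quartile shares summed to 9.51. The 3 CCND1 peaks without a K562 partner were short, at 624, 264 and 1032 bp, and lay 3873 to 9368 bp beyond the gene end. With at least 50% of the digest A peak covered, 9 of the 14 were found in K562. The share of all digest A peaks at that limit was not computed. Of the base pairs under digest A peaks in the CCND1 window, 50.9% were under a K562 peak, against 59.3% over the whole list. K562 covered 27.0% of the window and digest A 46.0%. K562 had no peak in the 8944 bp from 1407 bp before the gene end to 7538 bp after it. In the 10 Mb of chromosome 11 that hold CCND1, the log2 ratio of covered length in K562 to that in digest A was 0.38 above the median of 316 such bins, with an SD over bins of 0.57. In the bin of MYC the K562 ratio was 0.53 and in that of MYCN 0.76 above the median. A difference between cell lines cannot be told apart from one between libraries.

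Digest B and DRIPc found most of the same digest A peaks. Digest B touched 13 of the 14, against 76.8% of all digest A peaks, with a quartile sum of 12.3. DRIPc touched 12 of the 14, against 61.4% of all, with a quartile sum of 10.1. The peak that both lacked was the most upstream at MYC, which ended 856 bp before the gene start. DRIPc also lacked the 264 bp peak 6344 bp after the end of CCND1. With at least 50% of the digest A peak covered, digest B found 11 of the 14 and DRIPc 11. The share of all digest A peaks at that limit was not computed. Of the DRIPc cover in the CCND1 window, 74.5% was also under a digest A peak, against 31.1% over the whole DRIPc list. At MYC it was 97.8%. In the 10 Mb that hold CCND1, the log2 ratio of covered length to that in digest A lay -2.07 from the median of bins in DRIPc (SD over bins 1.08) and -0.63 in digest B (SD 0.36), below the median by more than the SD in both. In the bin of MYC these values were 0.81 and 0.0, and in that of MYCN 0.07 and -0.05. Within the CCND1 window itself, cover was 58.0% in DRIPc, 58.8% in digest B and 46.0% in digest A. These shares are not set against a median, so they cannot be compared with the ratios. In covered length, the 10 Mb held 1310 kb in DRIPc, 2500 kb in digest B and 2340 kb in digest A.

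**Figure D3:**
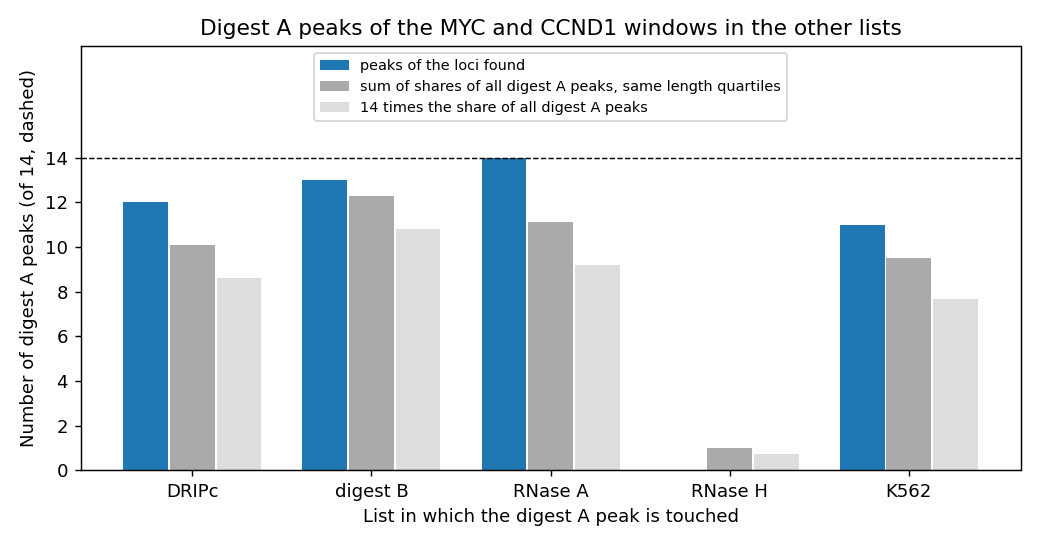
Number of the 14 digest A peaks of the MYC and CCND1 windows that touch a peak of each other list (blue), beside the sum of the shares of all digest A peaks in the same length quartiles (grey) and 14 times the share of all digest A peaks (pale). The vertical axis is a number of peaks, the dashed line marks 14, and RNase A reaches it with all 14 while RNase H has 0 beside sums of 0.998 and 0.713.

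MYCN had a peak in 1 list alone, at its start. DRIPc, digest B, RNase H, K562 and digest A had no peak within 20 kb of it, so no DRIPc strand can be given. Of windows of this length along the chromosomes, 39.8% held a peak in DRIPc, 30.9% in digest B and 9.42% in RNase H. The share was 23.2% in K562 and 28.7% in digest A. A window without a peak was thus the more common case in each of these 5 lists. These windows were placed without regard to genes, so they do not show how often a window around a gene lacks a peak. In RNase A, 13.2% of such windows were covered at least as much as the MYCN window. The RNase A list held 1 peak of 5038 bp from 16078628 to 16083665, from 2055 bp before the gene start to 2982 bp after it. It covered 100% of the start zone, 40.2% of the body and none of the end zone, and its last base lay 3464 bp before the gene end. In RefSeq on GRCh38.p14, the noncoding gene MYCNOS overlaps MYCN and is read from the minus strand, and a DRIP peak has no strand to tell them apart. Of all 59825 RNase A peaks, 17.6% touched none of the other 5 human lists, and 18.6% of those on chromosome 2. Most of these were short, with a median length of 1019 bp. Among RNase A peaks at least as long as that of MYCN, 335 of 6928 had no partner, or 4.84%.

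The MYCN promoter is shown because the RNase A peak spans it. The 250 bases before the RefSeq start of MYCN, plus strand, 5′ to 3′, are given from RefSeq on GRCh38.p14, at chr2:15940300-15940549 of that build, which is not the build of the lists. Capitals mark runs of at least 3 G.
MYCN: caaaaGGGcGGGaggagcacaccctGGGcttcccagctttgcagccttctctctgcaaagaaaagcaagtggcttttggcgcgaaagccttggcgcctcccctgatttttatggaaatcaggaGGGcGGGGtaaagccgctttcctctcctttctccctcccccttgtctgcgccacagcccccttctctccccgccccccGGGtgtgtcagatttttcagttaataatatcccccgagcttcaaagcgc
It holds 59 G and 84 C, a GC skew of -0.175, taken as G minus C over G plus C. Of 35116 RefSeq promoters, 13.4% had a skew this low or lower, and the median was 0. Its GC content was 57.2%, against a median of 58.0%. It holds 6 runs of GGG or longer, and 43.8% of promoters hold at least as many. On the other strand it has 9 such runs, seen here as CCC, and 20.3% of promoters have at least as many. The bases after the MYCN start, which the RNase A peak also covers, were not examined for skew or runs of G. Of the 3 genes, 1 was matched in the RefSeq promoter table.

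Within 500 kb on either side of MYCN there were 20 peaks in DRIPc, 9 in digest B, 13 in RNase A, 2 in RNase H, 12 in K562 and 15 in digest A. In DRIPc, digest B, K562 and digest A all of them lay upstream. From 20 kb before the gene to 500 kb after it, DRIPc, digest B, K562 and digest A had 0 peaks each. RNase A had 7 peaks there, from 180 to 5641 bp long, and RNase H had 2. Of the 7 RNase A peaks, 2 touched an RNase H peak, against 8.66% of all RNase A peaks. The first after the gene ran from 16133017 to 16138657 (5641 bp) in RNase A, and the RNase H peak there ran from 16134219 to 16141178 (6960 bp), sharing 4439 bp. The nature of the signal at that site was not tested. On the upstream side, the nearest peak lay 297 kb away in DRIPc, digest B, K562 and digest A, and 321 kb away in RNase A. Over the 10 Mb of chromosome 2 that hold MYCN, RNase A covered 248 kb and digest A 221 kb, a log2 ratio 0.10 above the median of bins with an SD of 0.53 over bins.

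**Figure D4:**
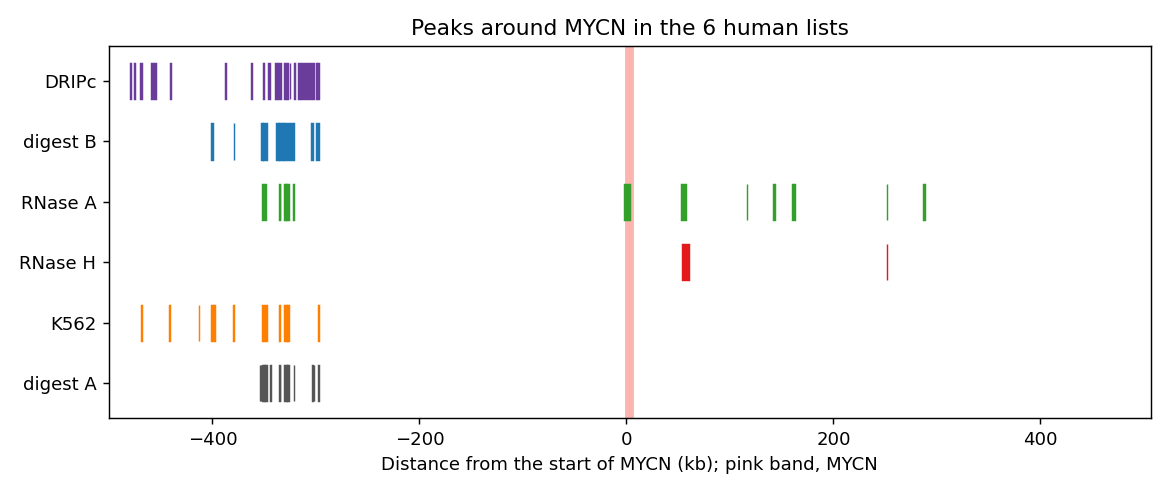
Peaks within 500 kb of MYCN in the 6 human lists, with distance from the start of MYCN in kb on the horizontal axis and 1 row per list. Each bar is a peak and the pink band is MYCN; more than 297 kb upstream every list but RNase H has peaks, while from the gene onwards the 7 RNase A and 2 RNase H peaks stand alone.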

How the data were processed

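The members and lists were chosen with earlier results of these data known. Builds and tools are those in the submitters' processing notes, which list hg19 and, with no role, Bismark 0.7.7, TopHat2 2.0.5 and BWA 0.6.1. Not given in the sources used here are the peak caller, its threshold, any control library and how the 2 DRIPc-seq samples were combined into the 1 list that the labels name for both. As deposited by the authors, each list holds start and end positions in base pairs and no other value, with a strand in the DRIPc list.

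Gene intervals on hg19 were taken as given. Peaks count with at least 1 bp of overlap, strand ignored. Cover is the union of peaks. Backgrounds are all consecutive windows of the stated length, each chromosome ending at the last peak of any human list. For 10 Mb bins, 20 kb was added to both lengths. Shared counts were checked with bedtools 2.31.1, equal for all 5 lists, and the functions were tested on simulated lists. The software was pandas 2.3.3, numpy 2.4.6 and matplotlib 3.10.9 under Python 3.11.15. Alternatives changed the zones, the windows, the overlap and the peaks kept. No hg19 genome or annotation was used, so restriction sites, other genes of the MYC and cyclin D pathways and genes of like pattern were not analysed, nor were the RNA-seq, MethylC-seq and mouse samples. Peaks touching a gene or its zones are named, with the longest of each window.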

Additional observations from a re-analysis of the deposited data

How the results depend on the processing

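Of 116 alternative values for 34 results, 102 stayed within 1.5 times the reported value. Some of these could not have moved, since merging or dropping peaks, or narrowing a window, leaves a cover or count of 0 at 0. The tally is therefore no measure of how firm the results are. With zones of 5 kb, 1 list (RNase A) had a peak at the end of MYCN, against 0; MYC and MYCN then have no body left. A window of 5 kb either side held fewer digest A peaks, of which 8 were found in digest B and 9 in RNase A. Starting from the 8 digest B peaks, 8 were found in RNase A and 7 in K562. The shares of all digest B peaks found in these lists were not computed, so these counts have no background. The window of 5 kb also raised the covered share, by its own construction where cover is near the gene: at MYC to 36.5% in DRIPc, 44.0% in digest B, 53.0% in RNase A, 67.0% in K562 and 65.4% in digest A; at MYCN to 30.6% in RNase A; at CCND1 to 94.0% in RNase A and 46.3% in K562. In that window 78.1% of stranded DRIPc cover at CCND1 was plus. No digest A peak of the loci was found in the RNase H list under the alternatives run for that count; the window of 50 kb does hold an RNase H peak, 47.1 kb downstream of MYCN. No paired analysis was possible because no result comes from a test and each group has 1 list. Unknown depth limits every absence of a peak, and restriction fragments limit the position of DRIP peak edges.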

Other observations

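Beyond the 20 kb windows, the next peak downstream of MYC lay at nearly the same distance in 4 NT2 lists, 53.1 kb after the gene end in DRIPc, 52.1 kb in digest B, 51.9 kb in RNase A and 51.8 kb in digest A. The next peak lay 690 kb after the gene end in the NT2 RNase H list and 80.4 kb after it in K562. The DRIPc peak 53.1 kb after the gene end, from 128806747 to 128808807 (2061 bp), was on the plus strand. PVT1, a long noncoding RNA gene, is the next gene downstream of MYC in RefSeq on GRCh38.p14; its hg19 position was not used.

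Downstream of CCND1, the run of minus strand DRIPc peaks was followed by a plus strand peak of 973 bp from 69491211 to 69492183. Digest B and digest A had peaks at the same place, from 69490638 to 69492762 and from 69490175 to 69492514. The next RNase A peak lay 46.9 kb and the next K562 peak 574 kb after the gene end, although a K562 peak that begins inside the window ran on to 69491294. These peaks were looked at after the values in the windows had been seen.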
